A study of Mus musculus with 18 samples.

Results

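The Toll-like receptors, co-receptors and adaptors described here are 10 genes of the 55573 in the count table: Tlr1, Tlr2, Tlr3, Tlr4, Tlr7, Tlr9, Myd88, Ticam1, Cd14 and Ly96. They were chosen by name, through the symbols that the deposited files pair with the Ensembl IDs, and not by their measured values. Earlier results of these data were known when they were chosen. All 10 were found, and all 10 passed the filter on low counts. Gene expression was measured by RNA-Seq on polyA RNA from the lumbar dorsal horn of the spinal cord (DHSC), the region that receives pain fibers from the paw, on the side of the injected hind paw. Adult C57BL/6J mice were used, and all 18 samples were taken 2 h after injection of 2% formalin, an irritant that evokes a first phase of pain behavior, a quiet interphase and a second phase. The samples were 6 of F1/proestrus females, 6 of F2/metestrus females and 6 of males, where F1 and F2 name females with a short and a long interphase and proestrus and metestrus are stages of the estrus cycle. Uninjected mice are not among these samples, so the values compare the groups after formalin and do not measure the response to formalin itself. In the female groups the behavior and the cycle stage go together and cannot be told apart.

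Toll-like receptors are membrane receptors that bind molecules of microbes and molecules released by damaged cells. Those at the cell surface (Tlr1, Tlr2, Tlr4) bind lipids and proteins, and those in endosomes (Tlr3, Tlr7, Tlr9) bind nucleic acids. Cd14 and the protein made by Ly96, MD-2, help Tlr4 to bind bacterial lipopolysaccharide. Myd88 is the adaptor used by all of these receptors except Tlr3, and it leads to NF-kappaB. Ticam1, also called TRIF, is the adaptor of Tlr3 and, from endosomes, of Tlr4, and it leads to type I interferon as well. In the spinal cord many of these genes are expressed by microglia, the resident macrophages, and they have been studied for a part in pain.

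None of the 10 genes passed a false discovery rate (FDR) of 5% in any comparison of the groups, where 0.197% of all genes passed between the sexes and 0.00% between the female groups. Cd14 was 1.29-fold higher in males than in females (95% interval 1.08 to 1.54), but its adjusted p was 0.323 (quasi-likelihood test of edgeR), and the other 9 had larger p-values. Tlr2 and Tlr3 were the members with the smallest p-values between the female groups, both higher in F2/metestrus, and their adjusted p was 0.99998. The intervals were narrow for Myd88, Tlr3, Tlr2 and Ticam1, and wide for Tlr1 and Tlr9, the members with the lowest levels.

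Total counts per sample ranged from 73590509 to 125724156. The libraries carry numbers from 27 to 35 (replicates 1 to 3) and from 188 to 196 (replicates 4 to 6), and each of these library series holds 3 samples of every group. Markers of dorsal horn neurons were detected in every sample, at a summed level of 460 to 559 CPM (counts scaled to library size with TMM factors), and no marker was at 3 counts or fewer in all samples in any of the 13 cell type lists. F1/proestrus 5 stood apart with markers of sensory ganglion neurons at a summed 538 CPM, against at most 54.6 CPM in males. Its score for these markers (mean centred log2 CPM) was 6.67, and the highest score among the other samples was 0.0300 (F2/metestrus 2). F1/proestrus 5 was kept in the main fits, and without it 77 rather than 49 genes passed between the sexes. In whole tissue such as this, more cells of a type and more RNA per cell cannot be told apart.

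Compared per exon length, as RPKM (CPM per kilobase of merged exons), the adaptor Myd88 had the highest level of the 10 genes, 3.90 ± 0.271 (mean ± SD, n = 18). Next were Tlr3 at 3.58 ± 0.375 RPKM and Cd14 at 3.16 ± 0.669 RPKM. These 3 levels overlapped, with Myd88 above Tlr3 in 14 of 18 samples and Tlr3 above Cd14 in 12 of 18. Tlr2 had 1.82 ± 0.263 RPKM and lay below Cd14 in all 18 samples. Ticam1 followed at 1.67 ± 0.207 RPKM and overlapped with Tlr2, which was the higher in 11 of 18 samples. A step of 2.08-fold separated Ticam1 from Ly96, in all 18 samples. Ly96 and Tlr7 overlapped, at 0.802 ± 0.200 and 0.713 ± 0.108 RPKM, with Ly96 the higher in 12 of 18 samples. Tlr4 was lower than Tlr7 in every sample, at 0.313 ± 0.0691 RPKM. The lowest were Tlr1 at 0.129 ± 0.0570 RPKM and Tlr9 at 0.0545 ± 0.0295 RPKM, in this order in 17 of 18 samples. The order of the 10 genes did not change when coding length replaced exon length. Exons of Myd88 and Tlr3 overlap exons of genes on the other strand, and the use of strand in counting is not stated. Mixed reads may therefore affect the places of these genes in the order.

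**Figure D1:**
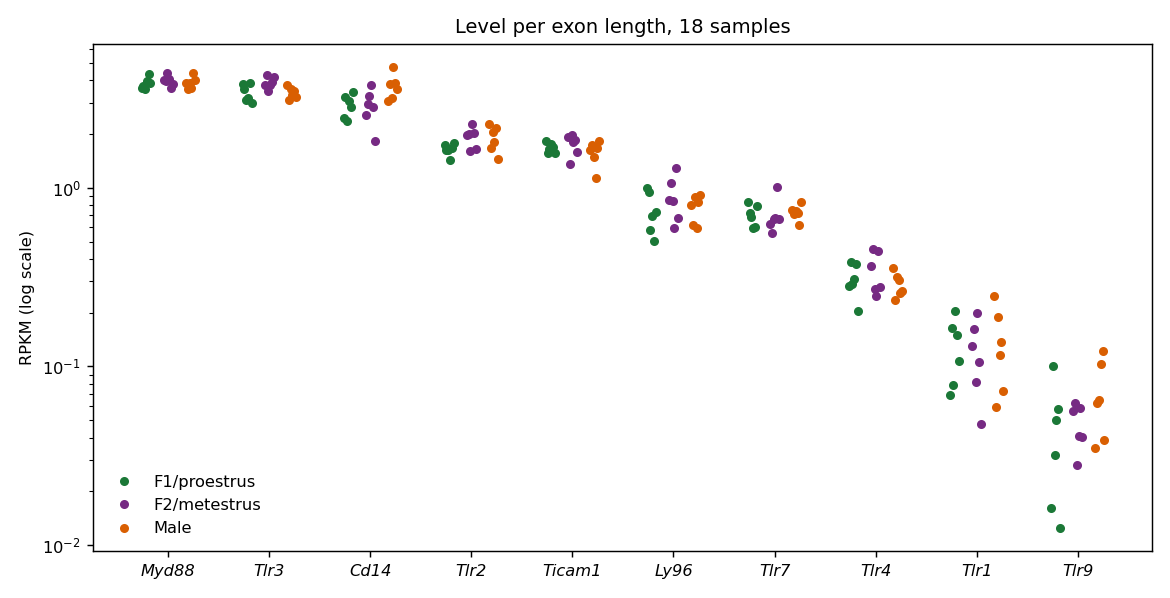
Level of each member per exon length (RPKM, log scale) in the 18 samples, ordered by the mean; each point is 1 sample, colored by group. Myd88, Tlr3 and Cd14 lie together at the top, between 1.84 and 4.74 RPKM, and Tlr1 and Tlr9 lie at the bottom with the widest relative spread.

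Of the cell surface receptors, Tlr2, which binds lipoproteins together with Tlr1 or Tlr6, lies on chr3:83836272-83841767 (GRCm38, minus strand). Tlr2 ranged from 4.33 to 5.35 CPM in F1/proestrus with a median of 4.96 CPM. In F2/metestrus the lowest Tlr2 value was 4.84, the median 6.01 and the highest 6.83 CPM. In males they were 4.39, 5.81 and 6.90 CPM. The F1/proestrus samples were close together, 4 of 6 F2/metestrus samples and 4 of 6 males lay above all of them, and the ranges of all groups overlapped. Tlr2 was 1.17-fold higher in F2/metestrus than in F1/proestrus (5.79 ± 0.762 against 4.96 ± 0.357 CPM, SD, n = 6 each; 95% interval 1.01 to 1.34, adjusted p = 0.99998 by edgeR). Between the female groups 0 of 24042 genes passed the threshold (0.00%), with 596 genes at an unadjusted p under 0.05 and 2 genes called by DESeq2. Males differed from all females in Tlr2 by 1.07-fold (0.928 to 1.23, adjusted p = 0.754 by edgeR).

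Tlr4, the receptor for lipopolysaccharide, lies on chr4:66827584-66930284 (plus strand). Its lowest, median and highest values were 1.14, 1.66 and 2.14 CPM in F1/proestrus. The same values were 1.37, 1.78 and 2.51 CPM in F2/metestrus and 1.31, 1.59 and 1.98 CPM in males. Tlr4 thus had its lowest mean in males, 1.61 ± 0.249 CPM against 1.80 ± 0.431 CPM in all females, and no male lay above or below all females. The fold was 0.897 in males against females (0.725 to 1.11, adjusted p = 0.735 by edgeR) and 1.11 in F2/metestrus against F1/proestrus (0.849 to 1.45, adjusted p = 0.99998 by edgeR). Tlr4 had the lowest fold change of the 10 genes between the sexes, a log2 fold change of -0.16, and the same held for males against F1/proestrus (-0.08) and against F2/metestrus (-0.23).

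Tlr1, the partner of Tlr2 for triacylated lipoproteins, lies on chr5:64924679-64933563 (minus strand) and had 16 to 102 counts per sample. Values ran from 0.232 to 0.686 CPM in F1/proestrus, from 0.160 to 0.665 CPM in F2/metestrus and from 0.198 to 0.829 CPM in males, with medians of 0.429, 0.396 and 0.421 CPM. The 3 ranges nearly coincided. The coefficient of variation over 18 samples was 44.2%, against 15.1% from counting error alone. The fold of males to females was 1.10 with an interval of 0.705 to 1.71 (adjusted p = 0.906 by edgeR) that spans differences in either direction.

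Among the endosomal receptors, Tlr3, which binds double-stranded RNA, lies on chr8:45395665-45411080 (minus strand). An exon of Gm45542 on the other strand overlaps it, and since the use of strand in counting is not stated, reads of the pair may be mixed. Its lowest, median and highest values were 15.6, 17.6 and 20.1 CPM in F1/proestrus, 18.05, 20.0 and 22.3 CPM in F2/metestrus, and 16.2, 17.7 and 19.7 CPM in males. F2/metestrus stood somewhat higher, with 3 of 6 samples above all F1/proestrus samples and 3 of 6 males below all F2/metestrus samples, while the groups overlapped. Tlr3 was 1.13-fold higher in F2/metestrus than in F1/proestrus (20.3 ± 1.55 against 17.8 ± 2.02 CPM, SD, n = 6 each; 1.01 to 1.27, adjusted p = 0.99998 by edgeR). In males it was 0.882-fold of F2/metestrus (0.797 to 0.977, adjusted p = 0.512 by edgeR), and 1.002-fold of F1/proestrus (0.905 to 1.11). These comparisons share samples, since the same F2/metestrus libraries enter both tests in which its p was under 0.05.

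Tlr7 binds single-stranded RNA and is X-linked (chrX:167304929-167330558, minus strand). Its lowest, median and highest values were 2.42, 2.89 and 3.40 CPM in F1/proestrus, 2.29, 2.74 and 4.15 CPM in F2/metestrus, and 2.53, 2.98 and 3.39 CPM in males. The medians were close and only F2/metestrus 5 lay clear of the other samples, at 4.15 CPM. The fold of males to females was 1.04 (0.888 to 1.21, adjusted p = 0.893 by edgeR), and that of F2/metestrus to F1/proestrus was 0.993 (0.809 to 1.22, adjusted p = 0.99998 by edgeR).

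Tlr9, which binds unmethylated CpG DNA, lies on chr9:106222598-106226883 (plus strand) and had the fewest counts, 4 to 39 per sample. Values were 0.0434 to 0.351 CPM in F1/proestrus, 0.0982 to 0.216 CPM in F2/metestrus and 0.122 to 0.423 CPM in males. The 2 highest males, Male 5 and Male 4, lay above all females and the rest lay among them. The mean was 0.247 ± 0.121 CPM in males and 0.161 ± 0.0831 CPM in females (SD, n = 6 and 12). With a fold of 1.51, an interval from 0.912 to 2.49 and an adjusted p of 0.577 (edgeR), Tlr9 had the highest log2 fold change of the 10 genes, 0.59, with a wide interval. The log2 fold change was 0.11 in replicates 1 to 3 alone and 1.01 in replicates 4 to 6 alone (adjusted p = 0.969 and 0.421 by edgeR), and leaving out each sample in turn moved it between 0.36 (without Male 5) and 0.75 (without F1/proestrus 2).

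**Figure D2:**
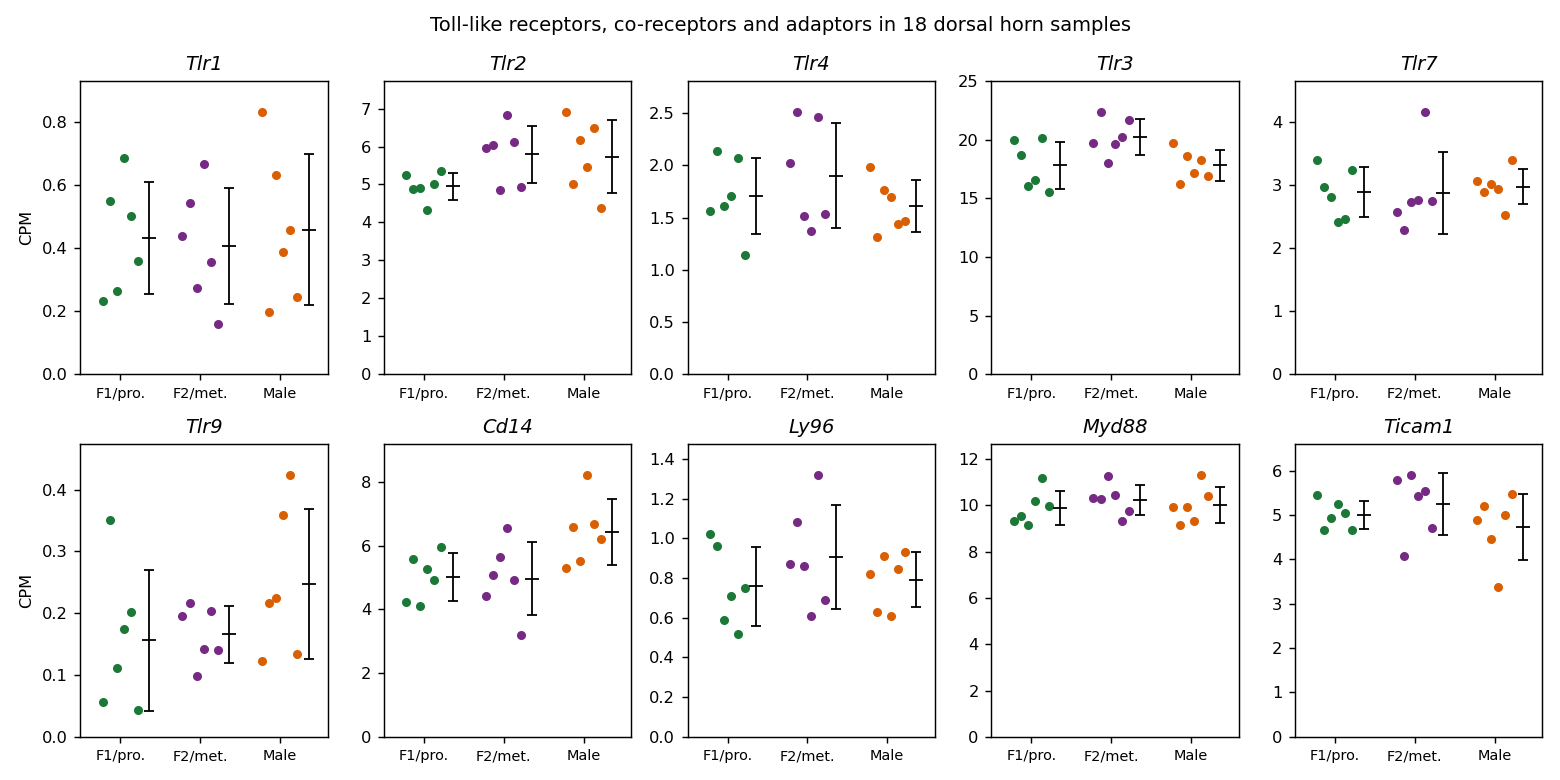
CPM of each member in the 6 samples of F1/proestrus (F1/pro.), F2/metestrus (F2/met.) and males; points are samples in replicate order and bars show the mean ± SD. The ranges of the groups overlap in every panel, and 3 of 6 males exceed all females in Cd14.

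Cd14, the co-receptor that passes lipopolysaccharide to Tlr4 and is anchored to the surface of myeloid cells, lies on chromosome 18. The females had 3.18 to 6.54 CPM with a median of 5.01 CPM, and the males 5.30 to 8.22 CPM with a median of 6.41 CPM. By sample, the males had 5.30, 6.60, 5.52, 8.22, 6.69 and 6.22 CPM for replicates 1 to 6. In 3 of 6 males Cd14 was above all 12 females, and no male was below 5.30 CPM, so the groups overlapped in their middle. The mean was 6.42 ± 1.04 CPM in males and 4.99 ± 0.913 CPM in females (SD, n = 6 and 12), a log2 fold change of 0.37 with an SE of 0.124. Cd14 was the member with the smallest p between the sexes (adjusted p = 0.323 by edgeR) and did not pass the threshold. Of all genes tested between the sexes, 0.197% passed it (49 of 24862), and of the 10 members 0 did.

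The difference in Cd14 had a like size against each female group, which share the same males. It was 1.28-fold against F1/proestrus (1.04 to 1.59, adjusted p = 0.707 by edgeR) and 1.30-fold against F2/metestrus (1.05 to 1.61, adjusted p = 0.519 by edgeR). In these tests 0.0925% and 0.129% of all genes passed (23 and 32 genes, and 14 to 28 and 16 to 37 when each sample was left out in turn). F2/metestrus and F1/proestrus differed by 0.988-fold in Cd14 (0.790 to 1.24). Under the other ways of fitting the data the log2 fold change of Cd14 between the sexes stayed between 0.25 and 0.46, with adjusted p-values from 0.123 to 0.709. Without Male 4, the highest sample, it was 0.27.

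Markers of other cells moved with sex in these samples. The score of 11 neutrophil genes (mean centred log2 CPM) was higher in males by 1.19 (exact permutation test over samples, two-sided p = 0.00382, adjusted p = 0.0201 over 13 lists). Their summed level was 6.05 to 34.4 CPM in males and 2.17 to 11.9 CPM in females. Within replicates 1 to 3 the difference was 1.63 (exact permutation p = 0.0119) and within replicates 4 to 6 it was 0.743 (exact permutation p = 0.226). The neutrophil list holds Mpo, which the paper reported as enriched in males in these same samples. These p-values are therefore not independent of that report. Cxcr2 and Ly6g, with 82 counts each over all samples, did not pass the filter on low counts but weigh fully in the score. Of the 9 neutrophil genes tested singly, 1 passed the threshold between the sexes. Log2 fold changes of these 9 ran from 0.971 to 1.86, all higher in males. Schwann cell markers (0.525 higher) and dorsal horn neuron markers (0.186 higher) had the same adjusted p of 0.0201 by the exact permutation test. Microglia markers summed to 419 to 470 CPM in males and 376 to 428 CPM in females, and their score differed by 0.0871 (exact permutation p = 0.0631, adjusted p = 0.205). The microglia score differed by 0.0568 within replicates 1 to 3 and by 0.117 within replicates 4 to 6 (exact permutation p = 0.333 and 0.0357, not adjusted). For the other 9 lists, border macrophages, monocytes, B and T cells, astrocytes, oligodendrocytes, neurons, endothelial cells, sensory ganglion neurons and red blood cells, adjusted p-values of the exact permutation test ran from 0.225 to 0.938. The log2 fold change of Cd14 between the sexes was 0.33 with the microglia score as a covariate (adjusted p = 0.499 by edgeR) and 0.45 with the neutrophil score as a covariate (adjusted p = 0.381 by edgeR), the latter fit chosen after seeing the data. The part of these cell types in the difference was not tested.

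**Figure D3:**
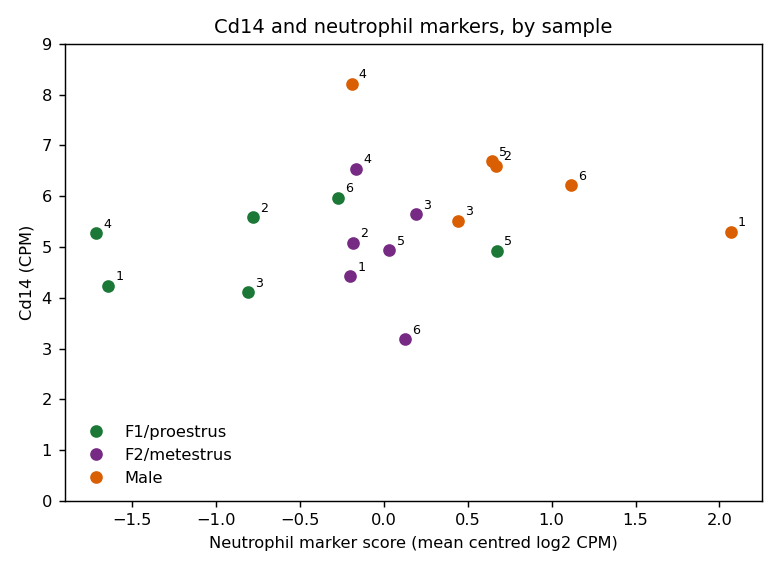
Cd14 (CPM) against the neutrophil marker score (mean centred log2 CPM of 11 genes) in the 18 samples, colored by group and numbered by replicate. Scores run from -0.192 to 2.07 in males and from -1.71 to 0.672 in females, and Cd14 from 5.30 to 8.22 CPM in males and from 3.18 to 6.54 CPM in females.

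Ly96, which makes the lipopolysaccharide-binding partner of Tlr4, lies on chr1:16688051-16709611 (plus strand). It had 46 to 111 counts per sample. Its lowest, median and highest values were 0.517, 0.728 and 1.02 CPM in F1/proestrus, 0.611, 0.868 and 1.32 CPM in F2/metestrus, and 0.612, 0.834 and 0.933 CPM in males. The males fell within the range of the females. The fold of males to females was 0.959 (0.747 to 1.23, adjusted p = 0.923 by edgeR). F2/metestrus had 1.19-fold the level of F1/proestrus (0.871 to 1.62, adjusted p = 0.99998 by edgeR), the highest of the 10 fold changes between the female groups.

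The 3 genes of the lipopolysaccharide receptor did not keep a fixed proportion among samples. Per exon length, Cd14 was 13.1 ± 3.11 times Tlr4 in males and 9.45 ± 3.47 times Tlr4 in females (SD), with ranges of 8.57 to 16.1 and 6.43 to 16.8 that overlapped. The ratio of Ly96 to Tlr4 was 2.71 ± 0.565 in males and 2.56 ± 0.636 in females. Cd14 therefore exceeded its receptor in every sample, and Ly96 did as well, with a lowest ratio of 1.36.

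The adaptor Myd88 lies on chr9:119335934-119341411 (minus strand), where it overlaps an exon of Acaa1a on the other strand, so that reads of these genes may also be mixed. Its lowest, median and highest values were 9.16, 9.74 and 11.2 CPM in F1/proestrus, 9.34, 10.3 and 11.3 CPM in F2/metestrus, and 9.17, 9.93 and 11.3 CPM in males. The 3 groups covered the same range. Myd88 was the steadiest member, with a coefficient of variation of 6.94% over 18 samples against 3.14% from counting error. The fold of males to females was 0.998 and its interval, 0.916 to 1.09, was the narrowest of the 10 (adjusted p = 0.991 by edgeR). Between F2/metestrus and F1/proestrus the fold was 1.03 (0.928 to 1.15).

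Ticam1, on chr17:56269319-56276786 (minus strand), had values of 4.67, 4.99 and 5.45 CPM (lowest, median, highest) in F1/proestrus. They were 4.08, 5.49 and 5.90 CPM in F2/metestrus and 3.38, 4.95 and 5.47 CPM in males. Male 4, the sample with the most Cd14, had the least Ticam1. The fold was 0.928 in males against females (0.810 to 1.06, adjusted p = 0.711 by edgeR) and 1.05 in F2/metestrus against F1/proestrus (0.906 to 1.21, adjusted p = 0.99998 by edgeR). Per exon length Myd88 was 2.37 ± 0.327 times Ticam1, and never less than 1.95 times.

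Over the 10 genes, 5 fold changes between the sexes were above 1 and 5 below, with a median log2 fold change of 0.02 beside -0.0013 over all genes tested. Between the female groups 7 were higher and 3 lower in F2/metestrus, with a median of 0.07 beside -0.00038 over all genes. None of the 10 separated the groups fully, where 0.121% of all genes did so between the sexes and 0.112% between the female groups.

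**Figure D4:**
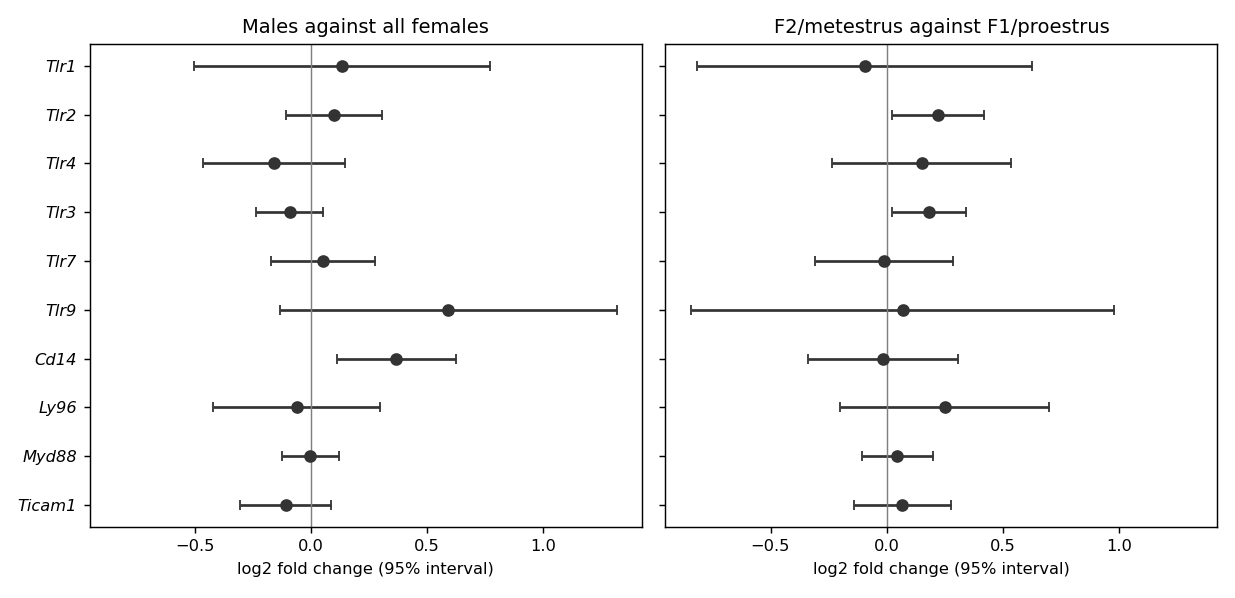
Log2 fold change of each member with its 95% interval from edgeR, for males against all females (left) and F2/metestrus against F1/proestrus (right). The interval of Cd14 (left) and those of Tlr2 and Tlr3 (right) leave out 0 before adjustment for the number of genes, and those of Tlr1 and Tlr9 are the widest.

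Many genes differed between the library series, which split every group in equal parts, and none of the members was called among them. Between replicates 4 to 6 and 1 to 3, with group in the model, 27.0% of all genes passed the threshold (6709 of 24862) and 0 of the 10 members did. Their log2 fold changes ran from -0.14 (Ly96) to 0.16 (Cd14), and the smallest adjusted p was 0.329 (Cd14, edgeR). None had an unadjusted p under 0.05, whereas 9410 of all genes did. None separated the series fully, where 4.20% of all genes did. Leaving out each sample in turn moved the log2 fold change of Cd14 between the series from 0.10 to 0.24, with a lowest adjusted p of 0.0546 (edgeR). The fold intervals of Tlr1 (0.628 to 1.52) and Tlr9 (0.660 to 1.82) were wide, so a lack of calls does not show equal levels. In tests of whether an effect differed between the series, 0 genes passed for the sexes (0.00%; 1235 at an unadjusted p under 0.05) and 2 for the female groups (0.00832%). No member was among them, and Myd88 had the only unadjusted p under 0.05 (log2 difference -0.28 for the female groups, adjusted p = 0.99999 by edgeR).

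The level of the members was also compared with that of microglia markers within groups, since microglia are a known source of these receptors. The score of 12 microglia genes varied little, with an SD of 0.0944 over the 18 samples. No member had a slope on this score past the threshold, which 6.39% of all genes did (1589 of 24862), a number that fell to 0 without Male 5 and to 16 without Male 2. Of the 12 microglia genes only 3 passed it themselves, so a lack of calls among the members does not show that they vary apart from microglia. The fit held group but not library series, and 7 of the 12 microglia genes were higher and 1 lower in replicates 4 to 6. With library series as a covariate 253 genes had a slope past the threshold. The members' slopes ran from -0.34 (Ticam1) to 1.46 (Tlr9) in log2 units per unit of the score, and the smallest adjusted p was 0.362 (Myd88, edgeR). Their intervals were wide, from -3.27 to 6.19 for Tlr9 and from -0.21 to 1.25 for Myd88.

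The genes around these receptors were described with 72 further genes of the pathway, of which 64 had enough counts to be tested (61 in the fit of females alone). Between the sexes 0 were higher and 0 lower at an FDR of 5%, with 6 at an unadjusted p under 0.05, and the same 0 held between the female groups and for males against either female group. The median log2 fold change between the sexes was -0.0037. The 64 were 5 other Toll-like receptors, 7 ligands and binding proteins, 4 receptor chaperones, 4 other adaptors, 16 kinases and ubiquitin ligases, 6 negative regulators, 10 transcription factors and 12 target genes.

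For some of these lists, the gene with the smallest p-value between the sexes is given here. Tbk1, the kinase that activates interferon regulatory factors after Ticam1, had 58.7 ± 5.08 CPM in males and 64.9 ± 3.23 CPM in females (log2 fold change -0.14, adjusted p = 0.331 by edgeR). Unc93b1, which carries the endosomal receptors from the endoplasmic reticulum, had 23.4 ± 1.87 CPM in males and 20.5 ± 2.33 CPM in females (0.20, adjusted p = 0.393). Nfkbia, the inhibitor of NF-kappaB that NF-kappaB itself induces, had 98.1 ± 12.3 and 88.4 ± 6.66 CPM (0.15, adjusted p = 0.493). Irf7, the interferon regulatory factor used by Tlr7 and Tlr9, had 3.33 ± 0.550 CPM in males and 4.41 ± 1.14 CPM in females (-0.40, adjusted p = 0.409). Of the target genes, Il1a had 0.621 ± 0.231 and 0.456 ± 0.0955 CPM (0.44, adjusted p = 0.453). None of these passed the threshold. In the lists of other Toll-like receptors, ligands and binding proteins, and other adaptors, the smallest adjusted p was 0.542, 0.676 and 0.552 (edgeR). The target genes Tnf, Il6, Il12b, Cxcl1, Cxcl2, Ccl3 and Ifnb1 and the receptor Tlr11 had at most 12 counts in any sample and did not pass the filter, so no values of the tests are given for them.

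**Figure D5:**
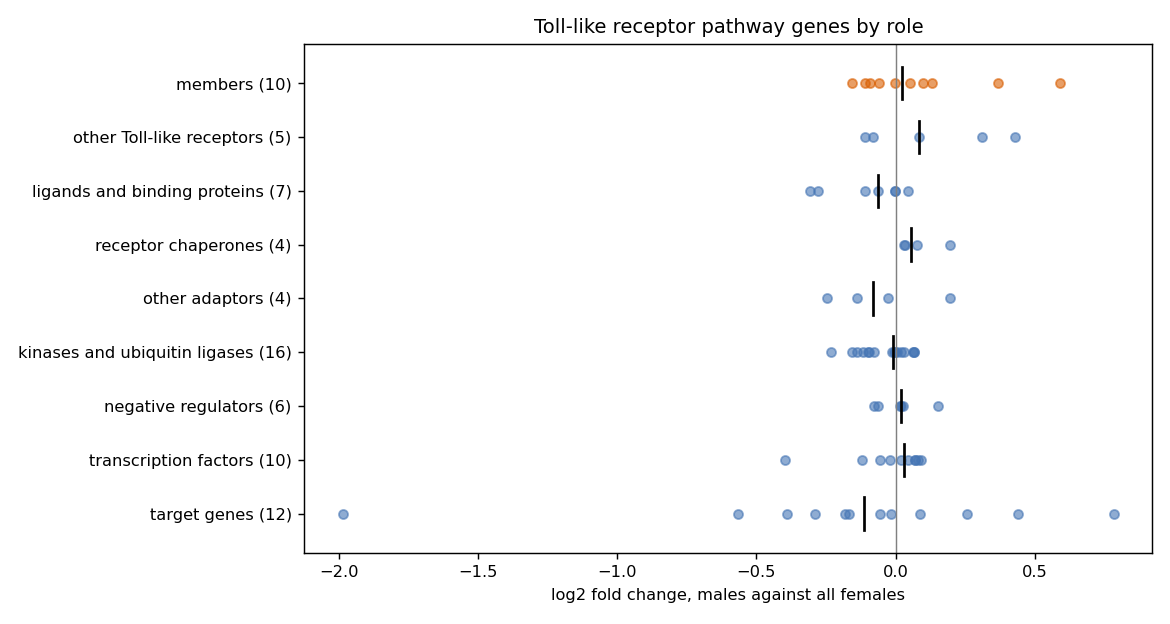
Log2 fold change, males against all females, of the 10 members and of the 64 other pathway genes that could be tested, by role; points are genes, the number of genes is in parentheses and the vertical bars are medians. The medians of all lists lie near 0, and the points spread most among the target genes, where Cxcl10, named here after its value was seen, is lowest at -1.99 (adjusted p = 0.481 by edgeR).

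Between the library series, 5 of the 64 pathway genes were higher and 13 lower in replicates 4 to 6 than in replicates 1 to 3, a share near that of all genes (27.0%). With a share near that of all genes, these calls are not a result about the pathway. The lower ones included 7 of the 16 kinases and ubiquitin ligases. They also included 1 of the other adaptors, 1 of the negative regulators and 1 of the receptor chaperones, which are not named here. Map3k7 (TAK1) had 39.2 ± 2.51 CPM in replicates 4 to 6 and 54.7 ± 6.47 CPM in replicates 1 to 3 (n = 9 each, log2 fold change -0.47, adjusted p = 6.11e-06 by edgeR). Traf6, the ubiquitin ligase that receives the signal from Myd88, had 26.9 ± 1.32 and 32.4 ± 2.42 CPM (-0.26, adjusted p = 8.00e-05). Ikbkg (NEMO), a subunit of the kinase that frees NF-kappaB, had 48.2 ± 2.47 and 56.8 ± 2.90 CPM (-0.22, adjusted p = 5.34e-05). The NF-kappaB subunits differed in direction, with Rela higher (46.2 ± 2.93 against 41.2 ± 1.86 CPM, adjusted p = 0.00414) and Rel lower (3.09 ± 0.640 against 4.36 ± 0.702 CPM, adjusted p = 0.00517) in replicates 4 to 6. The receptor chaperones Cnpy3 and Unc93b1 were higher in replicates 4 to 6, by log2 fold changes of 0.22 and 0.19 (adjusted p = 0.000590 and 0.00978 by edgeR).

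The genes whose levels most resembled those of each member over the 18 samples were found by Spearman's rho among 17541 genes with at least 1 CPM on average. For Tlr3 they were Ube2j1 (rho = 0.915) and Mrps5 (0.897), and for Tlr4 they were Papd5 (0.851) and Zdhhc13 (0.839). Cd14 was most like C1qb, a complement gene of microglia, and Kcnk2, a potassium channel gene, both with rho = 0.847. The lowly expressed Tlr9 was most like Itgb2, the integrin chain of leukocytes (0.794), and Vim, which makes vimentin (0.775). For Ly96 the first was Txlng (0.868), for Myd88 Rest, a repressor of neuronal genes (0.847), and for Tlr2 Afg1l (0.812). Tlr1, Tlr7 and Ticam1 had the lowest values, with Bcl3 (0.746), D330023K18Rik (0.707) and Gm6123 (0.763). Each of these values is the highest or second highest of 17541. Among all pairs of members, rho ranged from -0.523 (Tlr7 with Myd88) to 0.606 (Tlr4 with Tlr3). Cd14 had negative values with Tlr3 (-0.503) and Tlr4 (-0.486). These pairs were picked as the extremes of all pairs. The groups were pooled, so differences between the group means enter the values. The values describe 18 samples, which share library series and depth.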

How the data were processed

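Counts of reads per gene were analysed for 18 ipsilateral DHSC samples (6 males, 6 F1/proestrus and 6 F2/metestrus females), grouped by the labels. The authors deposited raw counts for 55573 genes, for which reads were aligned to mm10 by Subread, kept where they mapped uniquely, and assigned to exons by featureCounts. The use of strand in counting is not given in the sources used here, the Subread version differs between the methods and the processing notes, and so does the library kit (TruSeq in the methods, SMART-Seq with Nextera XT in the labels). The authors also deposited a DESeq2 table of a comparison that it does not name, with a mean signal, log2 fold changes, a Wald score and p-values. Only its gene symbols were used here. The methods call the samples biological replicates.

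Genes were filtered with filterByExpr (minimum count 10, minimum total 15), scaled by TMM and compared in edgeR 4.0.16 by its quasi-likelihood test (R 4.3.3, limma 3.58.1) with Benjamini-Hochberg adjustment over all genes tested, at an FDR of 5%. The 95% intervals come from the same fit. The sexes were compared over all 18 samples, the female groups over the 12 females. Library series was not in these fits, and with it as a covariate 134 rather than 49 genes passed between the sexes. RPKM is CPM per kilobase of merged exons of GENCODE vM21 (GRCm38), which held 55480 of the gene IDs. Marker scores are means of centred log2 CPM (prior count 2). DESeq2 1.42.0, limma voom with sample quality weights, size factors, no filter, the replicate number, library series or marker scores as covariates, each library series alone, and leaving out each sample were tried as alternatives. The neutrophil covariate and the interactions with library series were chosen after seeing the data. The edgeR fit was tested on simulated data that held no difference between library series, so that check does not cover such differences. The members, the lists of pathway genes and markers and the tests were chosen with earlier results of these data known. Named are all members and some of the pathway genes past the threshold (at most 3 per list and comparison). Those past it on the microglia score, and some of those past it between the library series, are not named. The gene with the smallest p between the sexes is named for kinases and ubiquitin ligases, receptor chaperones, negative regulators, transcription factors and target genes. Of the 2 genes most like each member, the text gives those with the highest values.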

Additional observations from a re-analysis of the deposited data

Results flagged for a closer look

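In F2/metestrus, Tlr7 had 4.15 CPM in sample 5, far above the other 5 samples of the group, which had 2.29 to 2.76 CPM. The gap to the nearest sample exceeded Dixon's 95% critical value for 6 samples. This was 1 of 30 groups of member values searched, and chance alone marks about 1 in 20. Without this sample the log2 fold change of Tlr7 between F2/metestrus and F1/proestrus was -0.14 in place of -0.0097.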

How the results depend on the processing

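No member passed an FDR of 5% in any comparison under any alternative run, so no call depended on the processing. The direction of small differences did. With replicates 4 to 6 alone, the log2 fold change between the sexes turned to -0.33 for Tlr1, 0.080 for Ly96 and 0.037 for Myd88, and that between F2/metestrus and F1/proestrus to 0.24 for Tlr7 and -0.088 for Myd88. With replicates 1 to 3 alone, the latter turned to 0.25 for Tlr1, -0.032 for Tlr9 and 0.11 for Cd14. With the neutrophil score as a covariate, Tlr2 turned to -0.0099 between the sexes. The slopes on the microglia score turned to -1.50 for Tlr9 and 1.10 for Ticam1 in replicates 4 to 6 alone. Leaving out each sample in turn moved the log2 fold change between the sexes from -0.13 to 0.28 for Tlr1, from -0.12 to 0.0074 for Ly96 and from -0.049 to 0.014 for Myd88. For F2/metestrus against F1/proestrus it moved from -0.29 to 0.085 for Tlr1, from -0.14 to 0.052 for Tlr7, from -0.12 to 0.48 for Tlr9 and from -0.12 to 0.085 for Cd14. The slope of Tlr9 moved from -0.83 to 3.0. The cause of these turns was not tested.

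Counts over all genes moved more. Between the sexes 49 genes passed in edgeR, 159 in DESeq2, 148 with the replicate block, 134 with library series as a covariate, 21 with the microglia score as a covariate, and 16 and 13 with either library series alone. Without Male 5 there were 25, without Male 4 there were 30 and without F1/proestrus 5 there were 77. Against F1/proestrus DESeq2 called 60, the replicate block 50 and the series covariate 46 (23 in edgeR), and against F2/metestrus 126, 63 and 75 (32 in edgeR). With replicates 1 to 3 and 4 to 6 alone there were 12 and 9 against F1/proestrus and 14 and 15 against F2/metestrus. Against F1/proestrus there were 14 without Male 4, F1/proestrus 2 or F1/proestrus 3 and 15 without F1/proestrus 6 or F2/metestrus 1. Against F2/metestrus there were 16 without Male 5, 17 without Male 4, 18 without Male 6, 20 without F2/metestrus 2 or 4 and 21 without F2/metestrus 5. The slope on the microglia score was called for 3068 genes by DESeq2, 4944 by voom, 966 without the filter, 253 with the series covariate, 0 with the replicate block, and 872 and 0 with either library series alone. It was called for 973, 1019 and 914 genes without F2/metestrus 1, 3 and 5, and for 16, 0 and 729 without Male 2, 5 and 6. Same-numbered samples correlated in their deviations from the group means by -0.105 to 0.227, with 9 of 18 pairs above 0.1. Of the 18 samples, 7 were closest to a sample of their own number. Library series was not removed from these deviations, so they neither show nor exclude that the numbers pair the samples. With the replicate block 0 members were called.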

Other observations

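Irf7, which carries the signal of Tlr7 and Tlr9 to type I interferon genes, had its highest level in F2/metestrus, 5.07 ± 1.004 CPM, against 3.76 ± 0.900 CPM in F1/proestrus and 3.33 ± 0.550 CPM in males (SD, n = 6 each). Its log2 fold change was 0.42 between the female groups (adjusted p = 0.99998 by edgeR) and -0.60 for males against F2/metestrus (adjusted p = 0.219 by edgeR). Cxcl10, a chemokine that interferon induces, had 1.19 ± 1.85 CPM in F2/metestrus, 0.238 ± 0.240 CPM in F1/proestrus and 0.171 ± 0.110 CPM in males, with a spread in F2/metestrus larger than its mean. Neither gene passed the threshold in any of these comparisons, and both were picked out after their values were seen.

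In genes that act beside the receptors, Vcan, which makes a matrix proteoglycan that Tlr2 can bind, fell between replicates 1 to 3 and replicates 4 to 6 from 12.1 ± 1.13 to 9.15 ± 1.36 CPM (n = 9 each, adjusted p = 0.000784 by edgeR). Cd180, a receptor related to Tlr4, was lower in replicates 4 to 6 as well (2.74 ± 0.328 against 3.35 ± 0.336 CPM, adjusted p = 0.0208), while its partner Ly86 was higher (12.98 ± 5.48 against 9.68 ± 0.894 CPM, adjusted p = 0.0495), with a far larger spread. Of the 7 ligands and binding proteins, 1 was higher and 2 were lower in replicates 4 to 6, where 27.0% of all genes passed the threshold. With so few genes, these calls are not a result about the list. Tlr2 and Tlr4 differed between the series by log2 fold changes of -0.02 and -0.13 (adjusted p = 0.908 and 0.546 by edgeR).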
